A study of Nematostella vectensis with 123 samples.

Results

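Transcript levels in single embryos of Nematostella vectensis, the starlet sea anemone, a cnidarian, were compared across the first 6 h boundary of a developmental time course. The earlier window held the 10 embryos with a label time below 360 min (-20 to 280 min; the embryo labelled -20 min has the number 50), and the later window the 9 embryos from 360 to 680 min, 19 embryos out of 123 in the series. Embryos were chosen by label time alone, and every difference is given as later minus earlier. An eleventh early embryo (320 min) had 7247 gene counts and was left out. All were untreated embryos picked at the 4-cell stage, kept singly at 20 °C and frozen at their collection time. The labels name no strain, no clutch and no stage for the single embryo, so the names cleavage (earlier window) and blastula (later window) come from the ages. The windows are called here by their hours of label time, which were not converted to time after fertilization. The numbers in the labels carry no unit and were read as minutes, since the protocol describes collection at intervals of 20 min.

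RNA was read by CEL-Seq, a method that barcodes the RNA of each embryo, amplifies it linearly and sequences the 3' end of polyadenylated transcripts. A lower level can therefore mean less RNA or less of it with a poly(A) tail, which cannot be told apart. Each library is a whole embryo, so fewer cells with a transcript and less of it per cell cannot be told apart either. Gene counts per embryo ran from 206062 to 1630063 (median 788770). The deposited table gives counts for 40499 transcript models, which are predicted transcripts with an identifier. No identifier was found among the 38762 genes of the RefSeq table for jaNemVect1.1, so no model could be tied to a gene name, a sequence or a stage marker. Levels are given as CPM, the count scaled to a common total of gene counts. With 3 counts as the limit of detection, a count of 0 allows a level of up to 1.84 CPM in the deepest embryo and 14.6 CPM in the shallowest, covering counting error only.

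As background, an animal egg is loaded by the mother with RNA, and the first cell divisions run largely on this store. The embryo's own genome is then transcribed at a rising rate while maternal transcripts are cleared, a handover called the maternal-to-zygotic transition. In Nematostella, cleavage leads to a hollow blastula, one wall of which later folds inwards at gastrulation.

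The embryos at 640 and 680 min (embryos 18 and 19 of the series) stood apart from the other 17. On principal component 1 of log2(CPM + 1), which held 28.4% of the variance over 10231 models, the 10 early embryos scored between -42.4 and -25.8. Scores then went from -16.5 at 360 min to 33.5 at 560 min and 28.4 at 600 min, and stood at 190.3 and 118 at 640 and 680 min. No early embryo overlapped the later window on this axis. The embryo at 600 min, the shallowest, lay apart on component 2, with a score of 173 where the others ran from -33.8 to 13.5. Across the 10231 models, the embryos at 640 and 680 min had a median Spearman rho of 0.43 with the early embryos and of 0.71 and 0.82 with the embryos at 12 to 18 h. The 7 embryos at 360 to 600 min had medians of 0.61 to 0.76 with the early embryos and of 0.45 to 0.61 with those at 12 to 18 h. These are descriptions across models in libraries of unequal depth. Whether the label times of the embryos at 640 and 680 min match their ages was not tested. Results are given below with and without the embryos at 640 and 680 min.

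**Figure D1:**
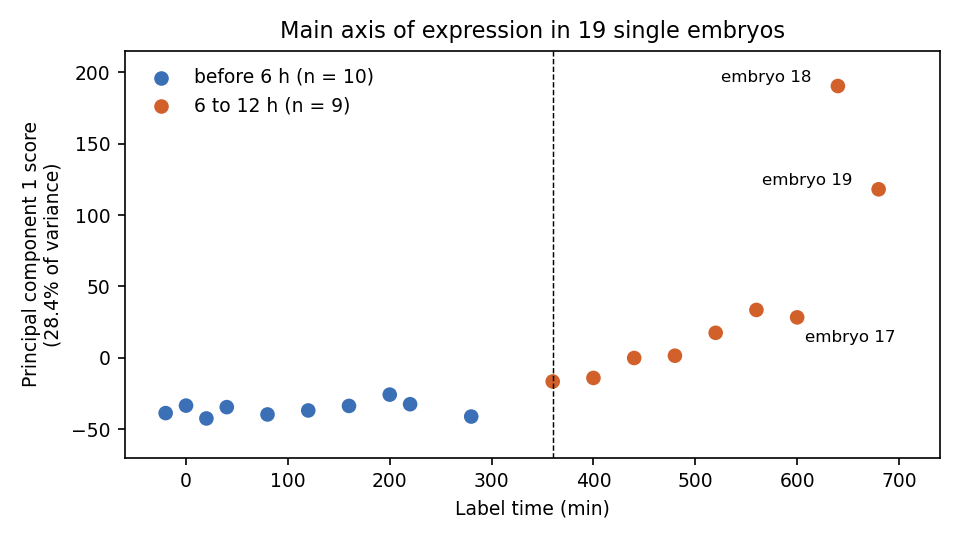
Score on principal component 1 of log2(CPM + 1) in each of the 19 embryos against label time in minutes, with a dashed line at 360 min. The 10 early embryos lie between -42.4 and -25.8, and the later 9 climb from -16.5 to 190.3, with a gap between 600 and 640 min.

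With all 19 embryos, position on the main axis followed age in the later window and not detectably in the earlier one. Without the embryos at 640 and 680 min it followed age in both windows, on another axis. Since the windows lay apart, the relation of score and label time was taken within each, and p-values were adjusted with that over all 19 embryos (3 relations). Within the 9 later embryos r was 0.82 (exact permutation test, p = 0.0014, adjusted p = 0.0021) and rho 0.97 (p = 0.00017, adjusted p = 0.00025). Without the embryos at 360 and 680 min, the 2 farthest from the median label time, r was 0.78. The embryo at 640 min stayed in. Within the 10 early embryos r was 0.26 (permutation p = 0.47, adjusted p = 0.47) and rho 0.24 (p = 0.51, adjusted p = 0.51). It was 0.64 for r without the embryos at 220 and 280 min. The embryo at -20 min, as far from the median label time as that at 220 min, stayed in. Without the embryos at 640 and 680 min component 1 was another axis. On it the embryo at 600 min scored 180.3 and the other 16 between -28.4 and 18.9, and the windows overlapped, with the embryo at 280 min (-4.22) above those at 360 min (-7.64) and 400 min (-6.01). The separation of the windows on component 1 thus did not hold without those 2 embryos. Component 2 without them (15.2% of the variance) placed the early embryos between -12.2 and 88.9. It placed the later ones between -68.2 and -25.2, except the embryo at 600 min at 41.5. Apart from that embryo, the windows did not overlap on component 2. On component 1 without those 2 embryos, r with label time was 0.82 within the 10 early embryos (permutation p = 0.0020, adjusted p = 0.0029). Within the 7 later ones, the embryo at 600 min included, r was 0.70 (exact permutation p = 0.0044, adjusted p = 0.0044).

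Of 10231 models tested across the boundary, 436 were higher and 187 lower at 6 to 12 h. Calls needed at least a 2-fold change and, in the edgeR quasi-likelihood test, a p under 0.05 after Benjamini-Hochberg adjustment, which 6.09% of models met (4.26% higher and 1.83% lower). The median log2 fold change was 1.94 for the models called higher, against -1.43 for those called lower and -0.01 over all models tested. Without the embryos at 640 and 680 min the same models had medians of 1.29 and -1.24. At least a 4-fold change, a log2 value of 2, was reached by 204 of the 436 and by 29 of the 187. Without the embryos at 640 and 680 min, 293 of 10877 models changed, 195 higher and 98 lower. Of the original calls, 189 of 436 and 83 of 187 were then made again in the same direction. Leaving out the embryo at 680 min alone gave 392 calls. The share of calls that were higher was 70.0%, but 58.7% with DESeq2 and 52.0% with quantile normalization.

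**Figure D2:**
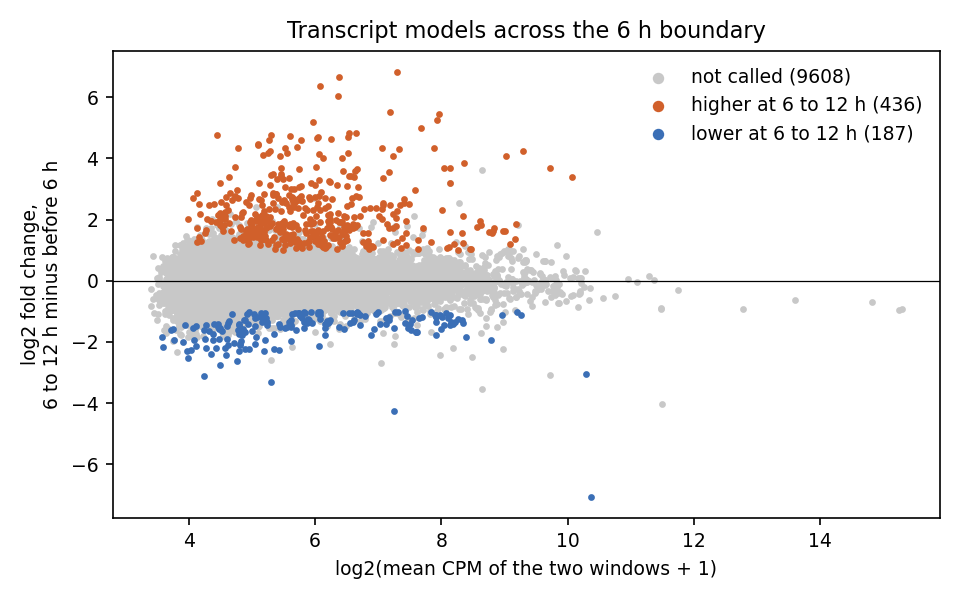
Log2 fold change of each of 10231 models (6 to 12 h minus before 6 h) against the log2 of its mean CPM over the windows plus 1. The 436 models called higher reach 6.82 and lie mostly at low to middle levels, and the 187 called lower fall by up to 7.06 in size.

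The models called higher had low early levels, and those called lower had early levels above the median of all models. The 436 risers had a median mean level of 18.3 CPM before 6 h and 87.4 CPM at 6 to 12 h, and 100 of them were below 10 CPM in the earlier window. The 187 that fell had a median of 72.5 CPM before 6 h and 28.7 CPM afterwards, and 75 of them were at 100 CPM or above at the start. Over all 10231 models tested the medians were 36.9 and 41.0 CPM, with 184 below 10 CPM and 1886 at 100 CPM or above in the earlier window. These levels describe models that were called on the same values. A model low in the earlier window could pass the filter on low counts mainly through a high later level. A low model that fell could hardly pass it, so part of the difference in early level comes from the filter. The ranges of the windows did not overlap for 52 of the 436 and 18 of the 187, and for 72 (0.704%) of all models tested.

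The model with the largest rise, by a rule that required windows without overlap and at least 10 CPM, was Nv.T1.6523.3. It had 0 counts in 6 of the 10 early embryos and reached 11.0 CPM in the highest, at 200 min. In the later embryos its lowest level was 22.7 CPM at 400 min, its median 196 CPM and its highest 987 CPM at 640 min. All 9 later embryos thus lay above all 10 early ones, and the embryos at 360, 400 and 600 min were the lowest of the later window. Mean levels were 2.43 ± 3.97 CPM early and 310 ± 323 CPM later (SD, n = 10 and 9). The fitted difference was 6.82 ± 0.83 on the log2 scale (SE; adjusted p = 1.7e-05 in edgeR). After 12 h its median level was 195 CPM at 12 to 18 h, 79.5 CPM at 18 to 24 h and 13.3 CPM at 36 to 48 h. Its highest levels, 987 and 617 CPM, were in the embryos at 640 and 680 min.

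Nv.T1.63571.6564 had the largest gain in mean CPM under the same rule. Its early levels ran from 4.91 CPM at -20 min through a median of 25.0 CPM to 312 CPM at 200 min. Later levels ran from 335 CPM at 360 min through a median of 593 CPM to 1761 CPM at 560 min. The single high early embryo, at 200 min, came close to the lowest later one, and the second highest early value was 77.7 CPM at 160 min. Mean levels were 56.1 ± 92.3 CPM early and 978 ± 631 CPM later (SD, n = 10 and 9). The fitted difference was 4.08 ± 0.64 on the log2 scale (SE; adjusted p = 0.00028 in edgeR), and 5.15 ± 0.50 without the embryo at 200 min (adjusted p = 9.5e-07). Its identifier belongs to a stem, a number shared by several identifiers, that covers 3153 models. Whether models of a stem are alike in sequence is not known. Whether such models share reads, and how shared reads were counted, is unknown too, so its level is uncertain. Unlike Nv.T1.6523.3, it still had a median of 464 CPM at 36 to 48 h.

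Among models that fell, Nv.T1.7844.1 changed most under the rule. It ran from 36.8 CPM at 20 min through a median of 69.3 CPM to 123 CPM at -20 min in the early embryos. In the later ones it ran from 0 counts (at 560, 600 and 640 min) through a median of 2.95 CPM to 22.7 CPM at 400 min. The windows did not overlap, as the rule required, and the 3 embryos at 0 included both of the shallowest libraries. Mean levels were 70.6 ± 27.0 CPM early and 6.28 ± 7.68 CPM later (SD, n = 10 and 9). The fitted difference was -3.30 ± 0.49 on the log2 scale (SE; adjusted p = 0.00014 in edgeR). Its medians after 12 h lay between 7.77 and 14.4 CPM in the 4 later windows.

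Nv.T1.12272.2 lost the most in mean CPM under the rule. It ran from 469 CPM at 200 min through a median of 666 CPM to 1112 CPM at 80 min in the early embryos, and from 77.9 CPM at 640 min through 185 CPM to 292 CPM at 480 min in the later ones. At 360 min it stood at 284 CPM, below every early embryo, as the rule required of each later embryo. Mean levels were 689 ± 184 CPM early and 196 ± 79.5 CPM later (SD, n = 10 and 9). The fitted difference was -1.92 ± 0.25 on the log2 scale (SE; adjusted p = 3.1e-05 in edgeR). Its median went on to 117 CPM at 12 to 18 h and 53.5 CPM at 36 to 48 h. Without the embryos at 640 and 680 min the log2 fold changes of these 4 models, in the order given, were 5.88, 3.66, -3.36 and -1.76, all still called.

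**Figure D3:**
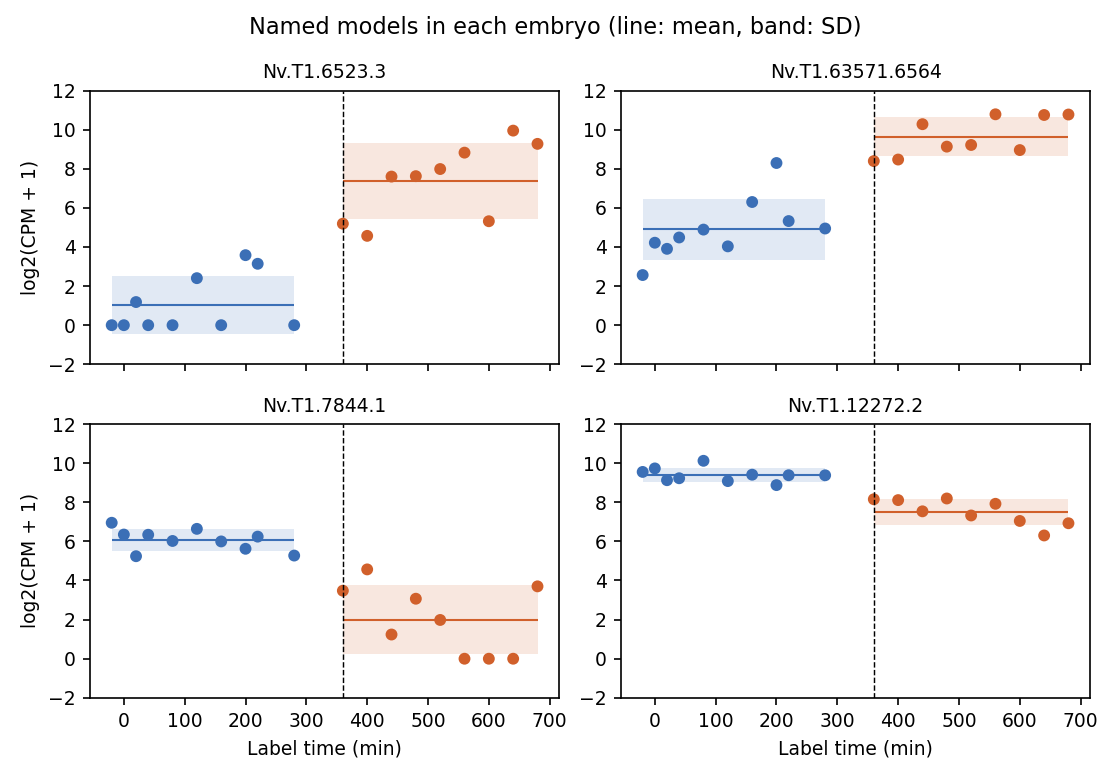
Level of the 4 named models, as log2(CPM + 1), in each of the 19 embryos against label time in minutes, with the mean (line) and SD (band) of each window and a dashed line at 360 min. In each panel the windows do not overlap and the value at 360 min lies on the later side, as the rule that picked these models required.

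At most 1 other model had a pattern through 48 h with a Pearson r of 0.9 or more to a named model. Over 72 embryos of the first number block (series numbers 1 to 73), the model most like Nv.T1.63571.6564 had a Pearson r of 0.92 of log2(CPM + 1), and it too was called higher (log2 fold change 4.33). For Nv.T1.6523.3 the closest model reached 0.88, for Nv.T1.12272.2 0.88 and for Nv.T1.7844.1 0.72. In none of the 4 cases did the closest model share the stem. These values describe embryos that share a trend with age.

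Among the models called higher, the rise grew through the 6 to 12 h window. Of the 436 models called higher, 228 had a mean at 360 to 440 min (3 embryos) that was at least 2-fold above their early mean. At 480 to 600 min (4 embryos) 373 did, and at 640 and 680 min (2 embryos) 426 did. The highest of the 3 intervals was the last for 387 of them, and 338 rose from each interval to the next. By single embryo, 163 had their highest later value at 640 min and 187 at 680 min. The models were called on values that include the embryos at 640 and 680 min, which favours a late peak. Peaks were not counted over all models. The 189 models called also without those 2 embryos had a median mean level of 15.5 CPM before 6 h, 61.3 CPM at 360 to 440 min, 89.4 CPM at 480 to 600 min and 167 CPM at 640 and 680 min. The other 247 had medians of 20.3, 37.0, 51.9 and 165 CPM in the same order. The split was made on the values before 6 h and at 360 to 600 min, so the groups differ there by construction.

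Among the models called lower, the fall also grew through the window. Of the 187 models called lower, 66 had fallen at least 2-fold in their mean at 360 to 440 min, 148 at 480 to 600 min and 180 at 640 and 680 min. The lowest of the 3 intervals was the last for 158, and 128 fell from each interval to the next. These models too were called on values that include the last interval, and low points were not counted over all models. Whether the timing of falls differed from that of rises was not tested. For comparison, over all 10231 models 353 were at least 2-fold below their early mean at 360 to 440 min, 694 at 480 to 600 min and 3344 at 640 and 680 min. The matching numbers at least 2-fold above were 444, 765 and 1773. Means over 2 embryos vary more than means over 4, and the embryo at 640 min was among the shallowest with 269450 gene counts.

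Together, the models called higher took a growing share of the RNA counted. They held 1.04 to 1.76% of gene counts in the early embryos (median 1.44%) and 2.76 to 13.6% in the later ones (median 4.99%). The share stood at 2.76% at 360 min, 3.28% at 400 min and 4.41% at 440 min, and reached 13.6 and 11.5% at 640 and 680 min. The models called lower held 2.36 to 4.66% early (median 2.57%) and 0.413 to 1.72% later (median 1.08%). The highest early shares, 4.66% each, were in the embryos at 160 and 200 min. For 3 of the 187 models 1 early embryo held most of the summed early CPM, and for 14 of the 436 1 later embryo held most of the summed later CPM. These shares are sums over models picked by their change and carry no test.

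Levels after 12 h, in embryos that did not enter the comparison, show what became of these models. At 12 to 18 h (9 embryos) 403 of the 436 risers still had a mean at least 2-fold above the early one, at 18 to 24 h (8 embryos) 364, at 24 to 36 h (18 embryos) 334 and at 36 to 48 h (18 embryos) 309. Their summed share had a median of 9.99% at 12 to 18 h and 8.62% at 36 to 48 h. Of the 187 that fell, 157 had a mean at 6 to 12 h at least 2-fold below the early one, as had 166 at 12 to 18 h and 168 at 36 to 48 h. These counts do not follow the same models. At 36 to 48 h 12 were back at or above the early mean. Over all models tested, 2916 were at least 2-fold below their early mean at 12 to 18 h and 1680 at least 2-fold above. At 36 to 48 h the numbers were 4332 and 1597. All these embryos have series numbers of 73 or below.

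**Figure D4:**
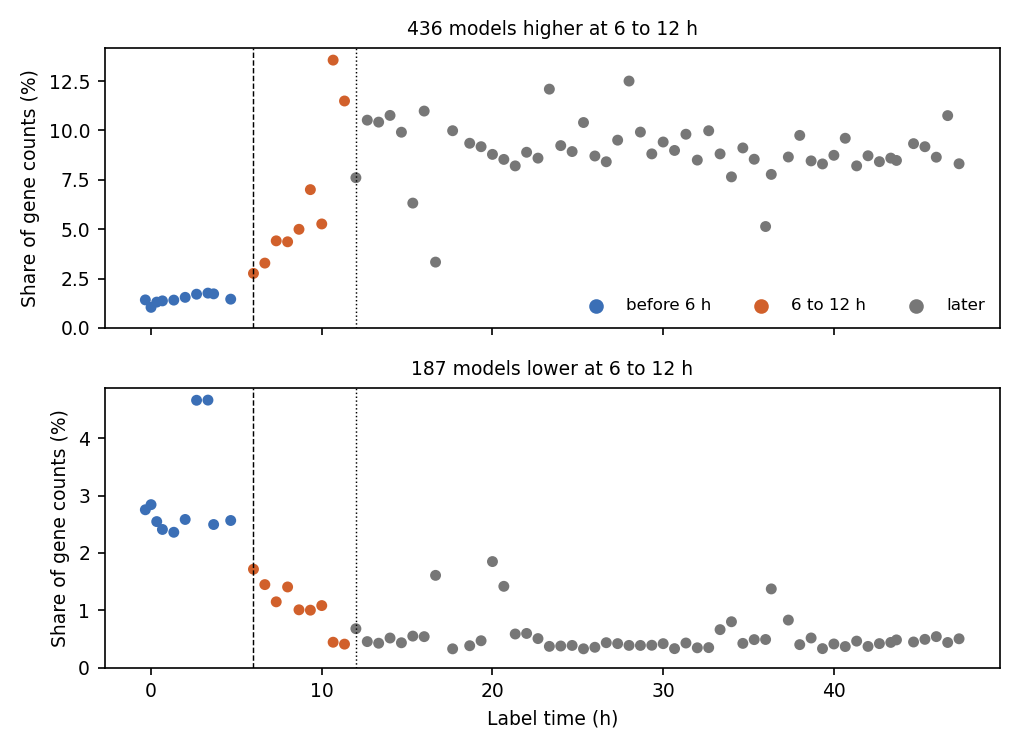
Share of gene counts, in percent, held by the 436 models called higher (top) and the 187 called lower (bottom) in each embryo numbered 73 or below, against label time in hours, with lines at 6 and 12 h. The upper share passes from 1.04 to 1.76% before 6 h to 13.6% at 640 min, and the lower one from 2.36 to 4.66% to about 0.4% at 640 and 680 min.

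With all 19 embryos, more models changed with age within the later window than within the earlier one. In edgeR this did not hold without the embryos at 640 and 680 min. From 6 to 12 h, 443 of 4219 models (10.5%) had a linear slope with label time (edgeR quasi-likelihood test, adjusted p under 0.05, no fold threshold), 314 rising (7.44%) and 129 falling (3.06%). The rising share of the calls was 70.9%, against 88.0% with spike-in scaling and 57.7% with DESeq2. Before 6 h, 6 of 5632 models (0.107%) did, 3 in each direction (0.0533% each), with 742 at an unadjusted p under 0.05. DESeq2 called 164 models before 6 h and 832 from 6 to 12 h. The filter on low counts differs between these fits. The slopes themselves differed between the windows for 312 of 10231 models (3.05%, edgeR interaction test over the 19 embryos), with the later slope higher for 183 (1.79%) and lower for 129 (1.26%). Spike-in scaling gave 239 such models, 88.3% of them with a higher later slope. Without the embryos at 640 and 680 min no model had a slope in the later window with edgeR (440 of 5291 at an unadjusted p under 0.05) and none had a slope that differed between windows (984 at an unadjusted p under 0.05). Among single embryos, the later count was 49 without the embryo at 680 min, 201 without that at 640 min, 204 without that at 400 min, 266 without that at 360 min and 819 without that at 600 min. The early count was 2 without the embryo at -20 min, 2 without that at 0 min, 3 without that at 280 min and 10 without that at 40 min.

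Close to the boundary few models could be called. Between the 3 embryos at 200 to 280 min and the 5 at 360 to 520 min, 5 of 11512 models changed, all higher, with 948 at an unadjusted p under 0.05. Each of the 5 was among the 436. The named models kept their direction there, with log2 fold changes of 4.21 for Nv.T1.6523.3 (edgeR adjusted p = 0.10), 2.15 for Nv.T1.63571.6564 (0.38), -2.60 for Nv.T1.7844.1 (0.16) and -1.41 for Nv.T1.12272.2 (0.061), none of them called.

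Models with 0 counts throughout the early window are described without a test, because the filter asks for a minimum level in enough embryos. Of 30776 models with at least 1 count in the 19 embryos, 104 had 0 counts in all 10 early embryos and counts in 5 or more of the 9 later ones, and none of these passed the filter on low counts. Pooled over the later window they stood at 1.15 to 67.5 CPM (median 6.58). Set against the 0.315 CPM that 3 counts over the pooled early window allow, the lowest was at least 3.66-fold higher and the highest at least 214-fold higher. They were first counted at 360 min in 33 cases, at 400 min in 52, at 440 min in 14 and at 480 or 520 min in the other 5. Since counts in 5 or more of the 9 later embryos were required, none could be first counted after 520 min. At 12 to 18 h 85 of the 104 were counted in 5 or more of the 9 embryos. A further 32 models had 0 counts up to 600 min and counts in both embryos at 640 and 680 min. No matching number was taken for other pairs of embryos. In the opposite direction, 129 models had counts in 5 or more early embryos and 0 in all 9 later ones. The pooled early window held 9518968 gene counts and the later one 6075967, so loss was seen at lower depth than gain. These are counts without a test.

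The 436 models called higher came from 343 stems and the 187 called lower from 155, and 4 stems held models called in both directions. Of the stems, 27 held 2 or more of the models called higher and 6 held 2 or more of those called lower. The stem of 3153 models held 33 of those called higher and 9 of those called lower, out of 496 of its models tested (6.65% and 1.81%, against 4.26% and 1.83% of all models). A second large stem, of 539 models, held 26 and 17 out of 361 (7.2% and 4.71%). With counts summed by stem, 478 of 8605 stems changed (5.55%), 341 higher (3.96%) and 137 lower (1.59%) (edgeR, same thresholds), and 224 without the embryos at 640 and 680 min. The summed counts of neither large stem were called. The stem of 3153 models took 11.6 to 32.7% of gene counts before 6 h and 9.52 to 19.8% afterwards, and for Nv.T1.63571 the fitted log2 difference was -0.52 ± 0.24 (SE; adjusted p = 0.21 in edgeR). For Nv.T1.12653, the stem of 539 models, it was -0.08 ± 0.16 (edgeR adjusted p = 0.83).

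The most abundant transcripts took less of the RNA counted in the later window. The 100 most abundant models of each embryo held 21.1 to 42.5% of gene counts before 6 h (median 29.5%) and 16.8 to 28.4% at 6 to 12 h (median 21.4%), with much overlap. The mean went from 28.9 ± 6.10% (SD, n = 10) to 22.0 ± 3.91% (n = 9), a difference of -6.94 ± 2.33 percentage points (SE, exact permutation test, two-sided p = 0.0074, adjusted p = 0.030 over 4 measures). The difference did not pass without the embryos at 640 and 680 min (-6.21 points, exact adjusted p = 0.11) or without the embryo at 0 min, which had the highest share (-5.43 points, exact adjusted p = 0.052). It also missed the threshold when the embryo at 400, 480, 520 or 680 min was left out (exact adjusted p = 0.051, 0.060, 0.056 and 0.063). The 3 most abundant models, all of the stem with 3153 models, held 6.91 to 26.4% early and 1.76 to 15.6% later. Their log2 fold changes ran from -0.94 to -0.71, and none was called (edgeR adjusted p = 0.13 to 0.25).

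No change in the amount of polyadenylated RNA per embryo was detected. The ratio of gene counts to counts of ERCC spike-ins, synthetic RNAs whose step of addition the labels do not state, ran from 1.65 to 3.59 before 6 h and from 1.62 to 3.24 afterwards, with the windows overlapping throughout. On the log2 scale the means were 1.26 ± 0.33 (SD, n = 10) and 1.14 ± 0.33 (n = 9), a difference of -0.13 ± 0.15 (SE, exact permutation test, p = 0.41, adjusted p = 0.83). The embryos at 640 and 680 min had the highest later ratios, 3.24 and 2.85, and without them the difference was -0.26 ± 0.14 (exact permutation p = 0.091, adjusted p = 0.18). Thinned to 100000 gene counts, 12824 ± 644 models (SD, n = 10) were detected early and 12805 ± 795 (n = 9) later (difference -19.0 ± 334, SE, exact permutation p = 0.96, adjusted p = 0.96). Of counts aligned to the genome, 24.9 ± 22.4% and 17.9 ± 1.87% fell outside the models (exact permutation p = 0.65, adjusted p = 0.87). The embryo at 200 min, at 88.3%, set this early mean, as the other 9 lay between 13.7 and 24.1%.

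**Figure D5:**
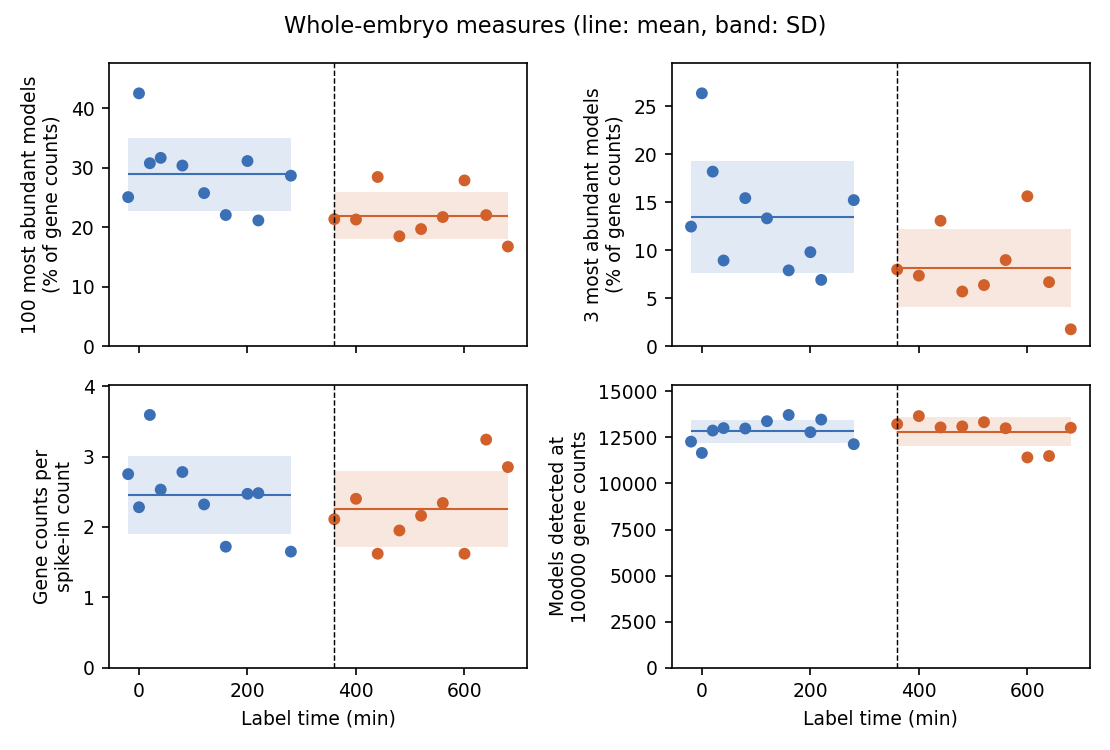
Share of gene counts in the 100 and in the 3 most abundant models (percent), gene counts per spike-in count, and models detected at 100000 gene counts, in each of the 19 embryos against label time in minutes, with the mean (line) and SD (band) of each window. The 2 shares are lower on average after 360 min, whereas the windows overlap throughout in the other 2 panels.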

How the data were processed

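The values are raw counts, as deposited by the authors, in 1 column per embryo: 40499 transcript models, 92 ERCC spike-ins and 5 unassigned classes. The submitters' processing notes list CASAVA 1.8, Bowtie2 2.1.0 and HTSeq 0.5.4p3, and per the labels' protocols the libraries were CEL-Seq with a nuclease (DSN) step. Molecular identifiers, build and annotation are not given in the sources used here. DSN lowers the share of abundant molecules, so shares of top models are after that step. Rows for ambiguous and not uniquely aligned counts held 0.

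The 2 windows were compared with edgeR 4.0.16 in R 4.3.3 (quasi-likelihood F test, TMM scaling, filterByExpr, without spike-in and unassigned rows). The filter removes models that are high in only a few embryos. SE is the absolute log2 fold change over the square root of F. Slopes used label time in hours. CPM uses gene counts without TMM, whereas the principal component analysis used TMM-scaled CPM. Embryos under 50000 gene counts were left out. The fits were tried on simulated counts without outlying embryos and, for the 2 windows, without a trend with age. That trial does not cover such features of the embryos. Per-embryo measures were tested by enumerating every split of the embryos.

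Members, lists and tests were chosen with earlier results of these data known. Since no identifier could be named, 2 models per direction are printed, those with the largest log2 fold change and the largest difference in mean CPM among called models with windows that do not overlap and at least 10 CPM in the higher one. No gene list was tested. The interaction test and the fits without embryos 18 and 19 or 17 were added after the data were seen. All pairs of embryos of a window differed by more than sampling noise (smallest chi-square per degree of freedom 5.67). The labels do not tie embryos to clutches. The p-values rest on the spread among these single embryos, their differences in age included.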

Additional observations from a re-analysis of the deposited data

Results flagged for a closer look

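Among 20 sets of values (10 measures or models in each window), 5 held an embryo far from the others. The cut-off, on the gap to the next embryo over the range, gives about 1 in 20 for independent, normally distributed values. These sets include levels of models chosen for their change and related measures, so the 5 cannot be set against that rate. In the earlier window, 88.3% of the aligned counts of the embryo at 200 min fell outside the models. The same embryo had 312.5 CPM of Nv.T1.63571.6564, against 77.7 CPM in the next. The embryo at 0 min had 42.5% of its gene counts in its 100 most abundant models. The embryo at 280 min scored 13.5 on principal component 2. In the later window, the embryo at 600 min scored 173 on that component.

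The slope with label time differed between the windows for 312 models in edgeR's interaction test, and for 0 without the embryos at 640 and 680 min.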

How the results depend on the processing

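No paired analysis was possible because each embryo is its own sample and the labels give no replicate numbers shared between the windows. The 623 changed models and 478 changed stems stayed within 1.5 times those counts with other scalings (552 to 610 models) and when single embryos were added or left out, except without the embryo at 680 min. Similar counts need not be the same models. Median-ratio scaling shared 598 of its 610 models with the 623, in the same direction, and spike-in scaling 513 of 552. Quantile normalization shared 434 of 633, and the fit without embryos 3 and 7 shared 463 of 541. Leaving out 1 embryo at a time gave 392 to 778 models and 290 to 574 stems. The counts moved to 125 and 94 when a 2-fold change was itself tested (glmTreat), to 2022 and 1333 with no filter on low counts, to 1006 and 719 with a filter at a mean of 10 CPM, to 5 and 13 within 160 min of the boundary, and to 293 and 224 without embryos 18 and 19. DESeq2 gave 907 models and 739 stems. The cause was not tested beyond the number of features and embryos that each setting leaves.

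Models with a slope before 6 h numbered 11 with spike-in scaling, 84 unfiltered, 164 with DESeq2, 2 without embryo 50 and 2 to 10 without 1 embryo. From 6 to 12 h they numbered 1280 unfiltered, 832 with DESeq2, 819 without embryo 17, 0 without embryos 18 and 19 and 49 to 819 without 1 embryo. Slope differences numbered 0 without embryos 18 and 19.

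The difference in the top 100 share was -6.32 points without embryos 3 and 7 (exact adjusted p = 0.083), -5.12 within 160 min of the boundary (where exact p cannot go below 0.018), -6.21 without embryos 18 and 19 and -5.43 to -7.80 without 1 embryo (exact permutation, adjusted p = 0.011 to 0.063). For the 1000 most abundant models it was -4.33 (exact adjusted p = 0.0503). The difference in detected models, which was not called, changed sign to 475 within 160 min, 139 without embryos 18 and 19, 155 without embryo 17 and 282 at a minimum of 2 counts, and ran from -149 to 155 without 1 embryo. The share outside models went to 0.31 points without embryos 3 and 7 and ran from -8.17 to 0.11 without 1 embryo, and the log2 ratio to spike-ins from -0.20 to -0.06. Each of the 4 named models was called in 31 of 32 settings, the exception being within 160 min.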
